A study of Mus musculus with 24 samples.

Results

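P16Ink4a was overexpressed in cultured Cd146+ cells of the mouse liver, and 3 mRNA libraries of these cells were set against 3 libraries of the same population that received the empty vector. The study calls Cd146+ cells sinusoidal, although the sinusoidal markers Stab2, Lyve1 and Clec4g were low or near 0 in these libraries. These 6 libraries, chosen by their group labels, are 6 of 24 in the series. The cells came from livers of C57BL/6 mice, described in the methods as 3-month-old females, were selected with magnetic beads against Cd146 (Mcam) and cultured. RNA was taken 1 week after lentiviral transduction. The P16 construct encodes P16Ink4a as a fusion with green fluorescent protein, and the empty vector is the same lentiviral backbone without the P16Ink4a cDNA. As a further control, 3 Cd146+ libraries with a non-coding hairpin (nc shRNA) were used, which sits in a different lentiviral backbone. Cd31+ liver endothelial cells with P16 (3 libraries) and with empty vector (3) served to compare the populations. All cells had received virus, no uninfected culture was among the libraries, and the share of cells that expressed the fusion protein in the sequenced cultures is not given in the sources used here.

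Each library carries a replicate number. In Cd146+ cells P16 and nc shRNA have numbers 1, 3 and 5, empty vector has 2, 4 and 5, so that only number 5 occurs with both P16 and empty vector. In Cd31+ cells P16 has 2, 3 and 5 and empty vector 1, 2 and 5, so that 2 and 5 occur with both. Levels are in CPM, counts scaled to a common library size over the 12 Cd146+ libraries, and run in the order of these numbers. Where the labels do not say that libraries of a group came from separate animals, tests measure the spread between these libraries. Between 18031274 and 25523585 reads were counted on genes in the 6 libraries. A count of 3, the limit that a count of 0 allows, corresponded to 0.121 to 0.172 CPM, which covers counting error only.

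The libraries held endothelial and mesenchymal transcripts side by side, in proportions that differed between libraries. Pecam1, an endothelial adhesion molecule, was at 154, 138 and 264 CPM with empty vector and at 254, 6.72 and 280.0 CPM with P16. Cdh5, the endothelial cadherin, was at 112, 108 and 323 CPM with empty vector against 163, 3.64 and 374 CPM with P16. P16 3 thus stood apart from the other 5 libraries, and nc shRNA 3 was similarly low, with 10.01 CPM of Pecam1 and 6.28 CPM of Cdh5. Msln, a mesothelial gene, reached 601 CPM in P16 3 and 428 CPM in nc shRNA 3, against 9.55 to 51.9 CPM in the other libraries. Col1a1, a collagen chain of mesenchymal cells, was at 10582, 466 and 10104 CPM with empty vector and 4432, 10388 and 9396 CPM with P16, so that empty vector 4 was lowest by far. The sinusoidal markers Stab2 (at most 0.973 CPM), Lyve1 (at most 7.69 CPM) and Clec4g (at most 0.0572 CPM) were at or near 0 in every one of the 6 libraries. Stab1 was high only in those of number 5 (367 and 439.6 CPM). Of these 4 sinusoidal genes, only Stab1 was high, and only in number 5. They are not all the markers of these cells, and Oit3, for example, is not given here. The wider list of 22 sinusoidal genes, many of which other cells express too, summed to 954 to 1544 CPM with empty vector and 1461 to 1703 CPM with P16. Of these 22 genes 17 were tested, and 3 lay at or under the limit of a count of 0 in all 6 libraries. Summed over 30 endothelial genes the level was 1349 to 3008 CPM with empty vector and 627 to 3286 with P16, and over 26 stellate and mesenchymal genes 14842 to 49468 and 28079 to 48908 CPM. For macrophages (24 genes) the sums were 99.8 to 391 and 47.5 to 515 CPM, highest in number 5 in both groups, with Clec4f at 0 throughout. For 9 mesothelial genes they were 215 to 1228 and 427 to 1798 CPM. Of 23 hepatocyte genes 13 lay at or under the limit of a count of 0 in all 6 libraries. Of 16 lymphoid genes 11 did, and the sum of 15 cholangiocyte genes was 179 to 372 CPM with empty vector and 88.6 to 355 with P16. In bulk samples such as these, fewer cells of a type and less RNA per cell cannot be told apart.

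The libraries also differed in sex-linked transcripts, although the methods state female mice. Xist, which is transcribed from the inactive X chromosome of females, was at 0.161, 571 and 695 CPM with empty vector and at 0.172, 0 and 646 CPM with P16. Ddx3y, a gene of the Y chromosome, was at 65.3, 0 and 0 CPM with empty vector against 119.6, 118 and 0 CPM with P16. Empty vector 2, P16 1 and P16 3 hence held Y-linked transcripts, and empty vector 4, empty vector 5 and P16 5 did not.

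**Figure D1:**
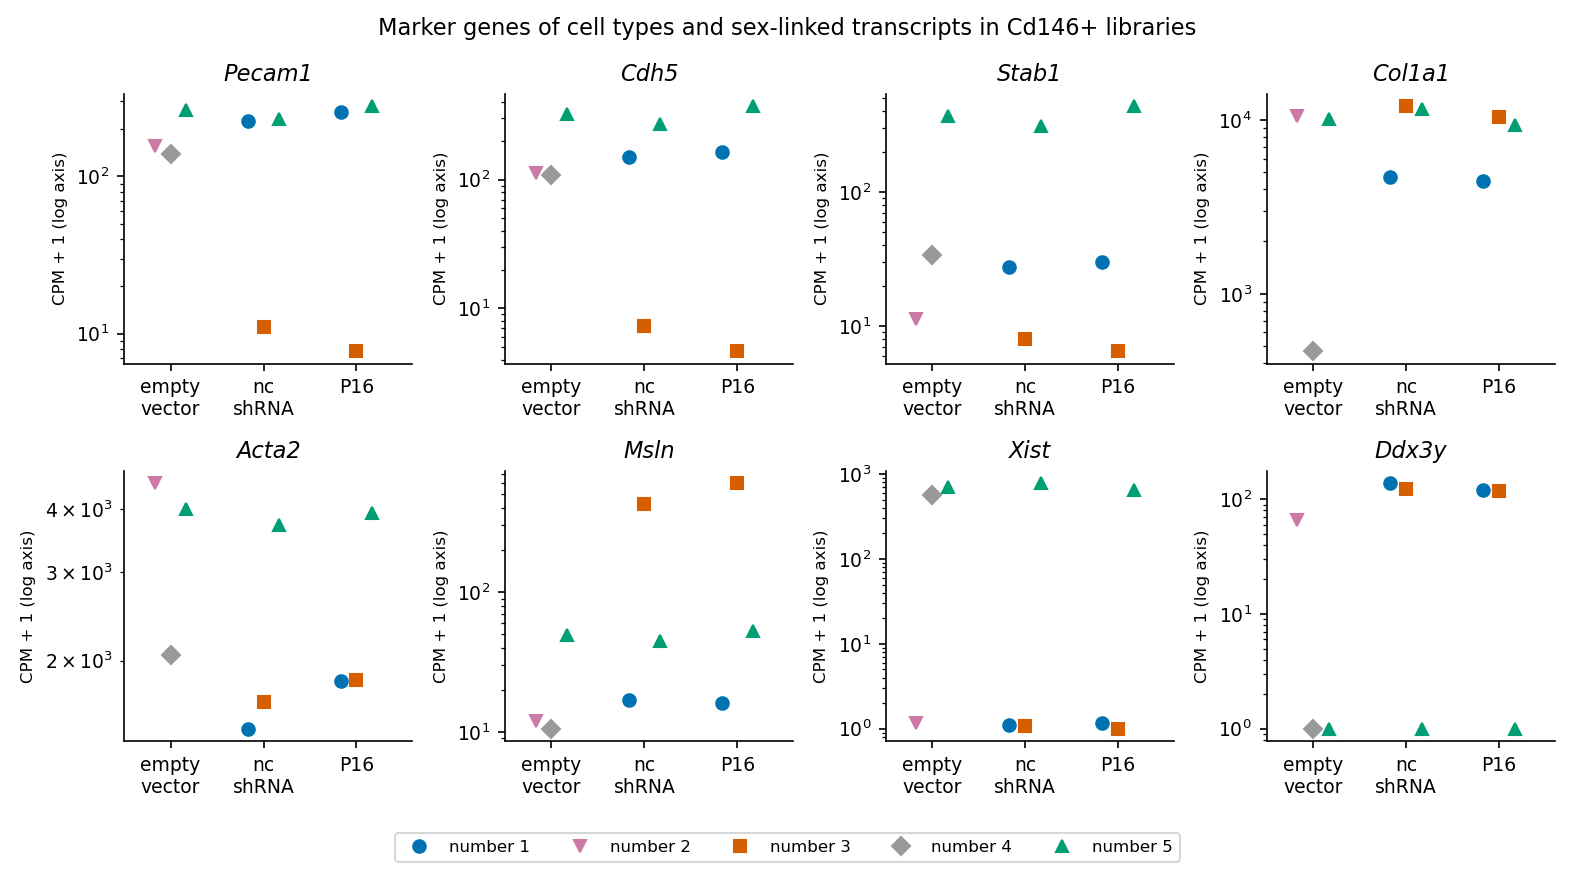
CPM + 1 on a log axis for 8 marker genes in the 9 Cd146+ libraries with empty vector, nc shRNA and P16, with 1 point per library and the replicate number as colour and shape. Libraries of number 3 have Pecam1 and Cdh5 near the bottom of the range and Msln at the top, and empty vector 4 has the lowest Col1a1.

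P16Ink4a, encoded by Cdkn2a, belongs to the INK4 family of proteins that bind the kinases Cdk4 and Cdk6 and keep them from pairing with D-type cyclins. Without that kinase activity the retinoblastoma family (Rb1, Rbl1, Rbl2) stays bound to E2F factors, and genes for DNA replication and mitosis are held off. Rbl1 and Rbl2 do so within the DREAM complex, whose MuvB core binds the cell cycle homology region (CHR) of mitotic promoters, while replication genes are mostly reached through E2F sites. Lasting arrest of this kind is a hallmark of senescence, with which secreted factors, lysosomal enzymes and loss of lamin B1 are commonly associated.

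Promoter sequences of 6 genes are shown because they hold the letters through which RB family complexes are known to act, in genes that were lower with P16. They were picked after their values were seen, from the 24 genes of the cell cycle lists below that had a single promoter window, an unadjusted p under 0.05 against empty vector and an adjusted p under 0.05 against nc shRNA. Of these 24 genes 16 held CHR letters and 7 held E2F letters, 4 held both and 5 held neither. Kif20b and Kif11, both kinesins of the spindle, and Aspm, a spindle pole protein, had the smallest p. Mki67, the Ki-67 antigen that coats mitotic chromosomes, was the first with both kinds of letters. Mcm5 and Mcm6, subunits of the replicative helicase, were the first replication genes with E2F letters. Each window runs 5′ to 3′ on the strand of the gene, from 250 bases before to 50 bases after the transcript start, and comes from RefSeq on GRCm38.p6. Capitals mark the CHR letters TTTGAA and the E2F letters TTCCCGC or TTGGCGC, searched on both strands. The Kif20b window lies at chr19:34922108-34922407 (plus strand), Kif11 at chr19:37376132-37376431 (plus), Aspm at chr1:139454523-139454822 (plus), Mki67 at chr7:135716330-135716629 (minus), Mcm5 at chr8:75109259-75109558 (plus) and Mcm6 at chr1:128359656-128359955 (minus).
Kif20b: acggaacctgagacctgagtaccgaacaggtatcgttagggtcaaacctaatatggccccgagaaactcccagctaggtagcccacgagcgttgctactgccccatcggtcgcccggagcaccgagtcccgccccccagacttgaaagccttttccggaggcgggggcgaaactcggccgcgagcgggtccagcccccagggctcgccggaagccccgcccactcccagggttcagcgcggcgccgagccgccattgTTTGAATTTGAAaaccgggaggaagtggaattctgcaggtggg
Kif11: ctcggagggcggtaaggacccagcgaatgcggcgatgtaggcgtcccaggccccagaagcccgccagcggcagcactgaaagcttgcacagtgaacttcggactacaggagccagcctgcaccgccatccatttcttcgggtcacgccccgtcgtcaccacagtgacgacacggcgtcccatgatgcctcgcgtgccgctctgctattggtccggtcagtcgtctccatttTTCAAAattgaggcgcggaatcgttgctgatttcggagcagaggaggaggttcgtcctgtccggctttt
Aspm: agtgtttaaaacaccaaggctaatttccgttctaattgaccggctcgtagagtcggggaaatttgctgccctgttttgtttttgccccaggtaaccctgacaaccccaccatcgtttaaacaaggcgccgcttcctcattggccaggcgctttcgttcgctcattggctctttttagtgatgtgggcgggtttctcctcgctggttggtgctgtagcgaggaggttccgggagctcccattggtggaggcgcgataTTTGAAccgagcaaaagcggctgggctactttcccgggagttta
Mki67: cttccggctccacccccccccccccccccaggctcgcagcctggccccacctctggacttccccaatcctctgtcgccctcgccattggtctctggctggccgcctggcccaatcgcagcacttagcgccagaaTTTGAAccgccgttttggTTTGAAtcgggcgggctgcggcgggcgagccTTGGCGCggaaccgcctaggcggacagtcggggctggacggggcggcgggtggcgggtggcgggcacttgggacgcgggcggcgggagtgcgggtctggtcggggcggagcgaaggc
Mcm5: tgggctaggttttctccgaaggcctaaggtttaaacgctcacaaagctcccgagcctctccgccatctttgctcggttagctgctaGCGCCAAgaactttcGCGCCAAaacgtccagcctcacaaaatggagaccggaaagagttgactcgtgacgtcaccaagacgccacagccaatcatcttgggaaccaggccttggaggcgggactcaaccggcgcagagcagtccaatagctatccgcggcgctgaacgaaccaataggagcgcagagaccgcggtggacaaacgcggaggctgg
Mcm6: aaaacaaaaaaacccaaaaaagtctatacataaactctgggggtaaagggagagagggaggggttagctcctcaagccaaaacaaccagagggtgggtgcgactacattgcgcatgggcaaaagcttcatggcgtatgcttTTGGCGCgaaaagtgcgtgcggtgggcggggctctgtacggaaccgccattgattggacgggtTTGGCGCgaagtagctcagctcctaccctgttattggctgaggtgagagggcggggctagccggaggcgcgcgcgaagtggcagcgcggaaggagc
The CHR letters begin 7 and 13 bases after the start in Kif20b, 19 bases before it in Kif11, and 6 bases after it in Aspm. Mki67 holds 2 CHR matches and 1 E2F match, and each Mcm window holds 2 E2F matches. Over the 28 mitotic kinesin and spindle genes with a window in the table, 22 (78.6%) held the CHR letters, against 14.1% of the tested genes with a window and 20.2% of all genes of the table. The E2F letters were found in 3 of the 28 spindle genes (10.7%) and in 24 of 40 replication genes (60.0%), against 14.0% of the tested genes and 7.79% of all. So the spindle list is given for its CHR share and the replication list for its E2F share. These were the highest shares among the 9 cell cycle lists below. The lowest were 11.1% with CHR letters in the repair genes and 9.09% with E2F letters in the checkpoint and passenger genes. In the anaphase promoting complex list 27.8% held CHR and 11.1% E2F letters. In the 39 lysosomal genes, of which 30 had a window, CHR letters were in 4 and E2F letters in 6. These matches are a description of the letters in the windows and not of binding.

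Cdkn2a mRNA was higher with P16 in each of the 3 libraries than in any empty vector library. It was at 69.9, 105 and 104 CPM with empty vector 2, 4 and 5 and at 855, 425 and 233 CPM with P16 1, 3 and 5. The P16 libraries spread widely, with P16 5 at 233 and P16 1 at 855 CPM. Mean levels of 93.1 ± 20.1 CPM with empty vector and 504 ± 319 CPM with P16 (± SD over 3 libraries) corresponded to a log2 fold change (log2FC) of 2.44 (SE 0.50, edgeR adjusted p = 0.986). Within number 5 alone the ratio of P16 to empty vector was 2.24. Counts per gene include reads from the introduced cDNA and from the p19Arf transcript of the same locus, which could not be separated here. With nc shRNA the level was 200.2, 125 and 97.1 CPM, also under the P16 library of the same number in all 3 pairs, with ratios of 4.27, 3.41 and 2.40.

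Across the whole table, 230 of 14860 tested genes (1.55%) were higher and 295 (1.99%) lower with P16 than with empty vector at an unadjusted p under 0.05 in edgeR's quasi-likelihood test. This is fewer than the 743 genes that such a threshold passes when no gene differs. No gene passed after Benjamini-Hochberg adjustment, Cdkn2a included (lowest adjusted p 0.986 in edgeR), while DESeq2's Wald test called 1 and called 439 lower and 353 higher unadjusted. All 3 P16 libraries lay above the 3 empty vector libraries for 555 genes (3.73%) and below them for 724 (4.87%). Comparisons with empty vector are therefore given as levels and log2FC with SE, "passed" means an unadjusted p under 0.05, and no adjusted p was under 0.986. The count moved with single libraries, from 104 lower and 119 higher without empty vector 4 to 696 and 596 without P16 5. Without P16 1 it was 139 and 82, without P16 3 it was 156 and 84, without empty vector 2 it was 229 and 134, and without both P16 3 and empty vector 4 it was 44 and 25.

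Of the 7 inhibitors of cyclin-dependent kinases, 6 were tested, 2 passed as higher (Cdkn2a and Cdkn2b) and none as lower. Cdkn2b encodes p15Ink4b and lies beside Cdkn2a. It was at 45.8, 63.9 and 102 CPM with empty vector and 202, 142 and 124 CPM with P16, without overlap, a log2FC of 1.14 (SE 0.35, passed). The nc shRNA libraries were at 198, 131 and 90.5 CPM, close to the P16 libraries of their number, and the log2 fold change against them with number as a block was 0.20 (edgeR adjusted p = 0.190). Within number 5 the P16 to empty vector ratio of Cdkn2b was 1.21. Cdkn1a, which encodes p21 and is a target of p53, was at 498, 312 and 644 CPM with empty vector and 416, 308 and 642 CPM with P16, and the groups overlapped (log2FC -0.09, SE 0.38). Cdkn2c (p18) had a log2FC of -0.65 (SE 0.45), Cdkn2d (p19Ink4d) -0.31 (SE 0.27) and Cdkn1b (p27) -0.11 (SE 0.19) on the log2 fold change scale. None of these 3 passed. Cdkn1c (p57) was too low to be tested, at 0.242, 2.595 and 0.445 CPM with empty vector against 0.114, 0.112 and 0.603 CPM with P16. Per transcript length, as the authors' FPKM, Cdkn2a had a mean of 78.2 with empty vector, under Cdkn1a at 134 and over Cdkn2b at 50.1. With P16 its mean FPKM of 420.2 was the highest of the family, before Cdkn1a at 126 and Cdkn2b at 109.9.

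**Figure D2:**
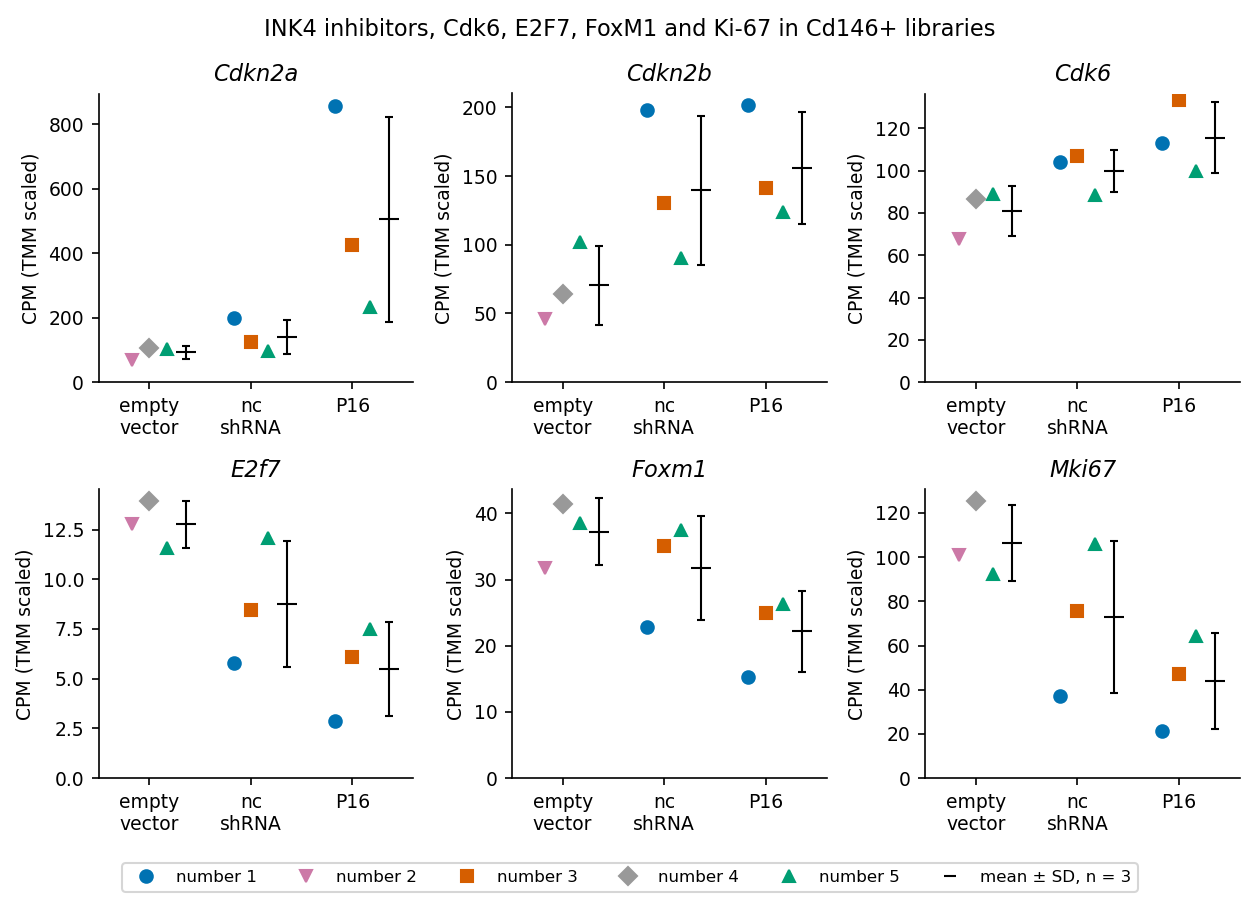
CPM in each Cd146+ library with empty vector, nc shRNA and P16 for 6 genes, on axes that start at 0, with 1 point per library (replicate number as colour and shape) and the mean ± SD of 3 libraries beside them. Cdkn2a is highest in the 3 P16 libraries, and E2f7, Foxm1 and Mki67 are lower in each P16 library than in the nc shRNA library of the same number.

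Among the 8 G1 cyclins and kinases, on which INK4 proteins act, 1 passed as higher and none as lower. Cdk6, one of the kinases that P16Ink4a binds, was at 67.5, 86.8 and 89.1 CPM with empty vector and 113, 133 and 99.8 CPM with P16, without overlap, at a log2FC of 0.51 (SE 0.18, passed). The nc shRNA libraries were at 104, 107 and 88.6 CPM, and each P16 library was above its nc shRNA partner, with an edgeR adjusted p of 0.111 for the log2FC of 0.21. Cdk4, the other kinase, was at 278, 275 and 225 CPM with empty vector against 212, 299.8 and 228 CPM with P16 (log2FC -0.07, SE 0.19). The D-type cyclins did not pass either, with log2 fold changes of 0.52 (SE 0.22) for Ccnd1, -0.28 (SE 0.25) for Ccnd2 and -0.39 (SE 0.29) for Ccnd3. Ccne1, the cyclin that partners Cdk2 at the start of S phase, was at 16.2, 24.1 and 17.9 CPM with empty vector and 4.58, 7.23 and 16.5 CPM with P16. P16 5 was above empty vector 2 there, and the log2FC of -1.03 (SE 0.49) did not pass. Ccne2 had a log2FC of -0.79 (SE 0.41), without overlap of the libraries at 12.1, 14.9 and 13.4 CPM with empty vector against 3.60, 8.69 and 10.9 CPM with P16, and Cdk2 -0.32 (SE 0.19). Those values did not pass.

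Of the 13 pocket proteins, E2F factors and their dimer partners, 3 passed as lower (1.99% of all genes did) and none as higher. Rbl1, which encodes the pocket protein p107, was at 21.2, 24.01 and 15.4 CPM with empty vector and 8.52, 9.92 and 16.1 CPM with P16, with P16 5 just above empty vector 5 (log2FC -0.81, SE 0.31, passed). Rb1 (log2FC -0.17, SE 0.31) and Rbl2 (log2FC -0.03, SE 0.22) did not pass. The atypical repressors E2f7 and E2f8, which are themselves E2F targets, were both lower. E2f7 was at 12.8, 14.0 and 11.6 CPM with empty vector and 2.86, 6.11 and 7.49 CPM with P16, without overlap, at a log2FC of -1.21 (SE 0.38, passed). Against nc shRNA at 5.79, 8.43 and 12.1 CPM it fell in each pair, by a log2FC of -0.69 with number as a block (edgeR adjusted p = 0.0176). E2f8 was at 7.70, 9.87 and 5.70 CPM with empty vector against 1.94, 3.98 and 4.92 CPM with P16 (log2FC -1.09, SE 0.42, passed). With nc shRNA E2f8 was at 2.45, 4.18 and 5.15 CPM, lower than with empty vector, and the difference to P16 was -0.13 (SE 0.20). The activators E2f1 (log2FC -0.02, SE 0.14) and E2f3 (log2FC 0.06, SE 0.12) and the repressors E2f4 (log2FC -0.12, SE 0.15) and E2f6 (log2FC -0.06, SE 0.13) had log2 fold changes near 0. E2f2 was low everywhere, at 1.77, 7.83 and 2.27 CPM with empty vector against 0.915, 1.29 and 2.21 CPM with P16, and did not pass (log2FC -1.41, SE 0.70), nor did E2f5 (log2FC -0.53, SE 0.23), Tfdp1 (log2FC -0.18, SE 0.16) or Tfdp2 (log2FC 0.41, SE 0.31).

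The 7 genes of MuvB, B-Myb and FoxM1, which time the mitotic genes, held 1 that passed. Foxm1, the transcription factor that joins MuvB in G2, was at 31.7, 41.5 and 38.6 CPM with empty vector and 15.2, 24.99 and 26.4 CPM with P16, without overlap (log2FC -0.74, SE 0.25, passed). It also fell against nc shRNA, from 22.8, 35.02 and 37.5 CPM (log2FC -0.52, edgeR adjusted p = 0.00273, lower in 3 of 3 pairs). Mybl2, which encodes B-Myb, was at 12.3, 14.0 and 13.2 CPM with empty vector against 4.23, 10.8 and 11.1 CPM with P16, without overlap, and did not pass (log2FC -0.59, SE 0.38). The MuvB core was steadier. Lin9 had a log2FC of -0.31 (SE 0.27), Lin37 -0.20 (SE 0.22), Lin52 0.31 (SE 0.17), Lin54 -0.04 (SE 0.18) and Rbbp4 -0.43 (SE 0.22), of which none passed.

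The cell cycle genes downstream were lower as a body. In 9 lists for replication, nucleotide supply, mitosis and repair, all 231 genes were tested and 214 had a negative log2 fold change against empty vector, with a median of -0.67, while the median over all 14860 genes was -0.0027. The lists were chosen with earlier results of these data known, so shares given here and below describe them and are no independent test. At the unadjusted threshold 79 (34.2%) passed as lower, against the 1.99% of all genes given above, and none as higher. The 3 P16 libraries all lay below the 3 empty vector libraries for 129 genes (55.8%, against 4.87% of all genes) and all above for 1. The values ran from -1.38 for Kif2c to 0.75 for Rrm1. Within number 5, the only number with both constructs, 196 of the 231 genes were lower in P16 5 than in empty vector 5. The median depended less on single libraries (between -0.82 and -0.42 with each left out in turn) than the count of 79 did, which was 10 without empty vector 4, 39 without empty vector 2, 49 without P16 1, and 11 without both P16 3 and empty vector 4. With the replicate number as a block over the 12 Cd146+ libraries the median was -0.37. Numbers 2 and 4 occur there only with empty vector, so that this contrast rested on empty vector 5 as the single control library. With a term for the sex-linked transcripts 47 of the 231 genes passed as lower, with a median of -0.63.

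Replication genes were moderately lower. Of the 49 genes for origin licensing and the fork, 15 passed as lower (1.99% of all genes did) and 0 as higher. For 23 the P16 libraries lay below all empty vector libraries (4.87% of all genes), and the list had a median log2 fold change of -0.51. Mcm5 was at 53.3, 54.5 and 45.2 CPM with empty vector and 12.8, 28.7 and 33.5 CPM with P16, without overlap (log2FC -1.03, SE 0.36, passed). Mcm6, of the same helicase, was at 76.2, 76.2 and 65.6 CPM with empty vector against 27.2, 53.8 and 51.1 CPM with P16 (log2FC -0.72, SE 0.27, passed). Mcm4, a further subunit, had 61.0, 63.6 and 46.3 CPM with empty vector against 34.5, 41.1 and 43.0 CPM with P16, a smaller log2FC of -0.52 (SE 0.17, passed). Rpa2, of the single-strand binding complex, was at 14.6, 27.5 and 15.8 CPM with empty vector and 6.29, 7.96 and 12.2 CPM with P16 (log2FC -1.12, SE 0.36, passed), and Prim1, the primase, at a log2FC of -0.79 (SE 0.27, passed). The most abundant members by FPKM did not follow against empty vector. Pcna, the sliding clamp, was at 75.2, 42.1 and 47.4 CPM with empty vector and 33.7, 62.0 and 42.2 CPM with P16 (log2FC -0.25, SE 0.31), and Rpa1 was at 103, 98.0 and 128 CPM with empty vector against 88.6, 150.2 and 125 CPM with P16 (log2FC 0.15, SE 0.23). Within number 5 the ratios of P16 to empty vector were 0.89 for Pcna and 0.98 for Rpa1. Against the nc shRNA library of its number, P16 was lower in 3 of 3 pairs for Pcna and in 1 of 3 for Rpa1. Among 9 genes of nucleotide supply, Dck and Tk1, 2 kinases that salvage deoxynucleosides, passed as lower. Dck was at 19.2, 24.3 and 19.3 CPM with empty vector and 8.41, 12.6 and 15.0 CPM with P16 (log2FC -0.80, SE 0.26, passed), and Tk1 was at 41.4, 46.8 and 38.8 CPM with empty vector against 24.3, 35.9 and 27.7 CPM with P16 (log2FC -0.53, SE 0.19, passed). The list had a median of -0.52. Against empty vector the subunits of ribonucleotide reductase went apart, Rrm2 at a log2FC of -0.79 (SE 0.38) and Rrm1 at a log2FC of 0.75 (SE 0.37), and neither passed. Between libraries of one number they did not. Within number 5 the ratios of P16 to empty vector were 0.83 for Rrm2 and 0.92 for Rrm1. Both were below nc shRNA in 3 of 3 pairs, Rrm1 by a log2FC of -0.14 with number as a block (edgeR adjusted p = 0.311).

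Genes for entry into mitosis were lower by more. Of 20 genes around cyclin B and Cdk1, 10 passed as lower (1.99% of all genes did) and 13 lay below without overlap (4.87% of all genes), with a median of -0.79. Mki67 was at 101, 125 and 92.4 CPM with empty vector and 21.2, 47.0 and 64.2 CPM with P16, and its lowest control library was above its highest P16 library (log2FC -1.26, SE 0.40, passed). Mastl, the Greatwall kinase that keeps Cdk1 substrates phosphorylated, was at 17.2, 18.5 and 11.8 CPM with empty vector and 4.52, 8.24 and 8.19 CPM with P16 (log2FC -1.18, SE 0.32, passed). Wee1, the kinase that restrains Cdk1, was at 22.9, 28.4 and 19.6 CPM with empty vector against 13.4, 15.4 and 14.6 CPM with P16 (log2FC -0.71, SE 0.19, passed), so that a gene that holds back mitosis was lower along with those that drive it. Plk4, which starts centriole duplication, had a log2FC of -0.86 (SE 0.25, passed). The small Cdk subunits Cks1b (log2FC -0.40, SE 0.32) and Cks2 (log2FC -0.69, SE 0.37), the most abundant of the list by FPKM, did not pass.

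The spindle genes were lowest. All 31 mitotic kinesin and spindle genes had a negative log2 fold change, with a median of -0.90. Of these, 18 passed (1.99% of all genes passed as lower) and 26 lay below without overlap (4.87% of all genes). Kif20b, whose window with 2 CHR matches is given above, was at 22.9, 23.5 and 21.7 CPM with empty vector and 12.8, 13.8 and 15.6 CPM with P16, the smallest p of any gene that was lower (log2FC -0.69, SE 0.16, passed). Kif11, the motor that pushes spindle poles apart, was at 36.8, 37.4 and 30.3 CPM with empty vector against 13.9, 20.5 and 24.1 CPM with P16 (log2FC -0.83, SE 0.24, passed). Aspm was at 26.2, 35.7 and 24.7 CPM with empty vector and 7.55, 9.75 and 18.2 CPM with P16 (log2FC -1.28, SE 0.37, passed). Cit, the citron kinase of cytokinesis, had a log2FC of -0.94 (SE 0.26, passed), and Tpx2, which activates Aurora A on the spindle, -0.85 (SE 0.29, passed). Numa1, an abundant spindle pole protein that also serves in the interphase nucleus, was at 139.5, 213 and 141 CPM with empty vector against 169.9, 107 and 141 CPM with P16 and did not pass (log2FC -0.24, SE 0.25).

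Of 37 kinetochore and centromere genes 36 were lower and 9 passed as lower, with a median of -0.77. For this and the next lists, 1.99% of all genes passed as lower. Cenpf, of the outer kinetochore, was at 33.7, 41.9 and 30.1 CPM with empty vector and 10.8, 16.6 and 23.5 CPM with P16 (log2FC -1.05, SE 0.31, passed). Cenpe, the kinetochore kinesin, was at 32.1, 45.2 and 31.3 CPM with empty vector against 10.9, 16.3 and 25.3 CPM with P16 (log2FC -1.04, SE 0.34, passed), and Ndc80, which grips microtubules, had a log2FC of -1.19 (SE 0.40, passed). Zwint was the exception, at 150.2, 93.6 and 163 CPM with empty vector and 149.8, 217 and 175 CPM with P16 (log2FC 0.42, SE 0.26), and Mis12 was level (log2FC -0.01, SE 0.16). Among 13 genes of the spindle checkpoint and the chromosomal passenger complex, all were lower and 3 passed (median -0.66). These were Incenp (log2FC -0.60, SE 0.18, passed), Sgo1 (log2FC -1.11, SE 0.38, passed) and Cdca8 (log2FC -1.01, SE 0.37, passed), while the abundant Bub3 did not pass (log2FC -0.20, SE 0.14). In the condensin and cohesin list 8 of 18 passed (median -0.57). Top2a, the topoisomerase that untangles sister chromatids, was at 141, 169.5 and 124 CPM with empty vector and 39.3, 83.3 and 94.3 CPM with P16 (log2FC -0.999, SE 0.34, passed). Espl1 (separase) had a log2FC of -0.90 (SE 0.30, passed) and Esco2, which acetylates cohesin in S phase, -1.17 (SE 0.41, passed). The cohesin subunit Rad21, used throughout the cycle, had a log2FC of -0.17 (SE 0.14).

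The anaphase promoting complex had the smallest shift of the 9 lists. The median of its 19 genes was -0.03, and 3 passed as lower (1.99% of all genes did). These were the activator Cdc20, at 47.5, 88.0 and 51.3 CPM with empty vector and 18.2, 31.6 and 38.6 CPM with P16 (log2FC -1.07, SE 0.36, passed), the ubiquitin conjugating enzyme Ube2s (log2FC -0.54, SE 0.19, passed) and the inhibitor Fbxo5 (log2FC -0.96, SE 0.37, passed). Core subunits such as Anapc2 (log2FC 0.16, SE 0.19) and Anapc5 (log2FC -0.16, SE 0.15) did not pass. In DNA repair by recombination and the Fanconi pathway, 32 of 35 genes were lower and 11 passed (median -0.77). Brca1 was at 15.0, 18.5 and 11.98 CPM with empty vector and 5.605, 9.64 and 9.30 CPM with P16 (log2FC -0.89, SE 0.29, passed), its partner Bard1 at a log2FC of -1.05 (SE 0.36, passed) and Fanca at a log2FC of -1.06 (SE 0.37, passed). H2ax (log2FC -0.24, SE 0.22) and Topbp1 (log2FC -0.36, SE 0.19), the most abundant by FPKM, did not pass.

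**Figure D3:**
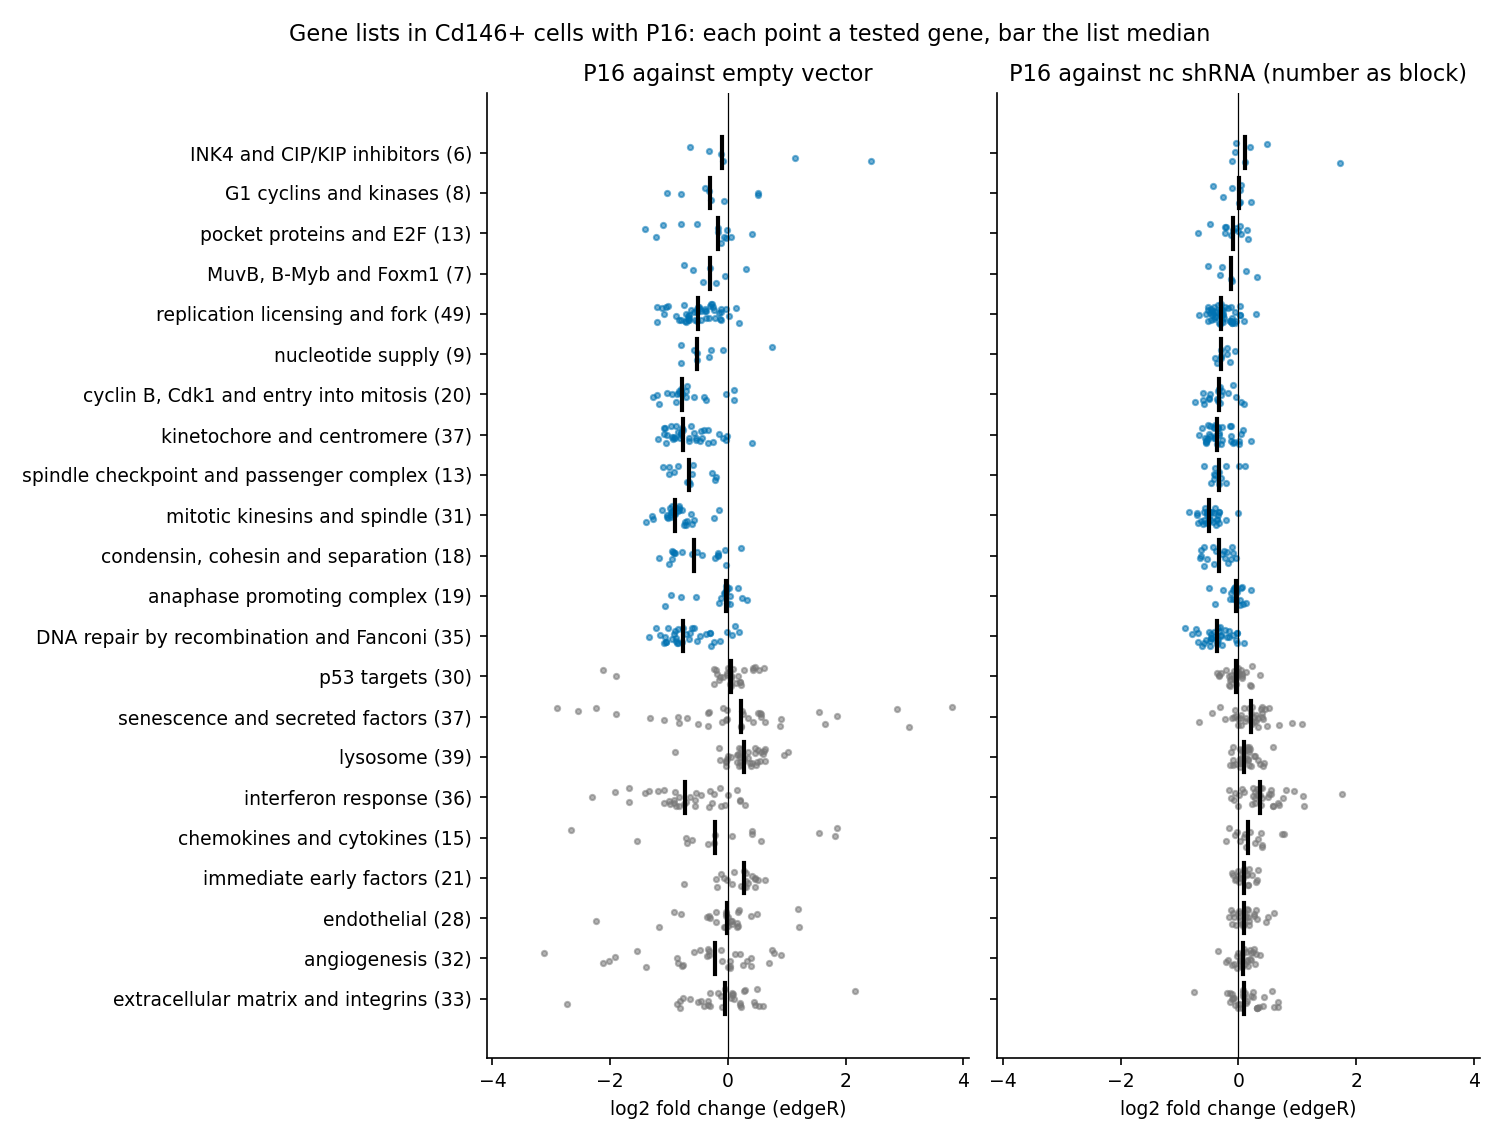
Log2 fold change of each tested gene (points) and list median (bars) for 22 gene lists, against empty vector on the left and against nc shRNA with the replicate number as a block on the right, with the number of genes tested against empty vector in brackets. The blue points are the 13 lists of cell cycle regulators and machinery. From replication to repair they lie mostly left of 0 in both panels, with the mitotic kinesins at medians of -0.90 and -0.50, while the interferon list lies left of 0 in the left panel and right of 0 in the right one.

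Single calls leaned on single libraries. Of the 73 genes beside Cdkn2a that passed and are given here, 26 also passed with each of the 6 libraries left out in turn. These were 8 of the 37 members of the regulator and cell cycle lists (E2f7, Mastl, Wee1, Aspm, Cenpf, Cit, Kif11 and Kif20b) and 18 of the 36 other genes, such as Arhgap11a, Nid2, Nod1, Elovl6 and Tgfbr3. Many of the other genes were named because their p in this same comparison was among the smallest of all genes, so these shares cannot be compared. Arhgap11a, given below as a gene of mitosis, is outside these lists. Without empty vector 4, 35 of the 73 passed, without P16 1 or P16 3 47 each, without empty vector 2 48, without empty vector 5 64 and without P16 5 68.

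The comparison with nc shRNA used the same P16 libraries but controls of the same replicate numbers. Libraries of one number deviated together from their group means (r of 0.885 to 0.909 over the 3 pairs), so that number was fitted as a block. Between numbers r was -0.642 to -0.313, but deviations from means of 3 libraries pull these values below 0. Without the block, 66 genes were lower (0.455%) and 164 higher at an unadjusted p under 0.05, and 1 of 14503 passed adjustment. With it, 258 of 15369 genes fell (1.68%) and 522 rose (3.40%) at an adjusted p under 0.05. Of the 231 cell cycle genes 61 fell (26.4%, against the 1.68% of all genes) and none rose, with a median log2 fold change of -0.34. Without the block the median was -0.33, but 2 genes passed as lower at the unadjusted threshold. The pair of number 1, 3 or 5 left out gave 29, 59 or 54 cell cycle genes that fell, with medians of -0.31, -0.41 and -0.29. In 166 of the 231 the P16 library was below its nc shRNA partner in all 3 pairs, and in 5 in none.

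The spindle list again had the most negative median, in a comparison that shares the P16 libraries with the first. Of the 31 spindle genes 22 fell (median -0.50), of 49 replication genes 10 (-0.29), of 37 kinetochore genes 6 (-0.36), of 35 repair genes 6 (-0.35), of 18 condensin and cohesin genes 6 (-0.33), and of 13 checkpoint and passenger genes 5 (-0.32). Cyclin B and Cdk1 genes fell in 4 of 20 cases (-0.33), nucleotide supply in 1 of 9 (-0.29) and the anaphase promoting complex in 1 of 19 (-0.04). Mki67, at 37.4, 75.8 and 106 CPM with nc shRNA, fell (log2FC -0.74, SE 0.08, edgeR adjusted p = 1.63e-05). Top2a went from 65.5, 120.2 and 149.9 CPM to 39.3, 83.3 and 94.3 CPM (log2FC -0.64, edgeR adjusted p = 5.24e-05), and Kif11 from 27.6, 30.2 and 36.5 CPM to 13.9, 20.5 and 24.1 CPM (log2FC -0.70, edgeR adjusted p = 0.000626). Aspm (log2FC -0.83, edgeR adjusted p = 0.000747), Kif20b (log2FC -0.53, edgeR adjusted p = 0.00702) and Cenpe (log2FC -0.62, edgeR adjusted p = 0.00121) fell likewise, each lower in 3 of 3 pairs.

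The smallest p in that comparison belonged to genes that rose, and those that fell included matrix and membrane genes beside the mitotic ones. Of those that fell, Anxa8, an annexin, went from 351, 370.5 and 183 CPM with nc shRNA to 197, 218 and 101 CPM with P16 (log2FC -0.82, edgeR adjusted p = 1.09e-06) and Adam12, a membrane protease, from 39.3, 115 and 93.0 CPM to 24.8, 55.9 and 49.8 CPM (log2FC -0.88, edgeR adjusted p = 3.84e-06). With empty vector they were at 484, 16.1 and 151 CPM and 89.5, 39.7 and 67.5 CPM, a range that takes in the P16 libraries. Those that rose with the smallest p were mt-Co2, Gm28661, Gm12715, mt-Co3, Rpl19-ps11, mt-Atp6, Gm28437 and Gm11263. Each had an edgeR adjusted p of at most 1.05e-06, under that of any gene that fell. mt-Co2, the mitochondrial subunit of cytochrome oxidase, was at 13.5, 10.2 and 10.2 CPM with nc shRNA, 73.1, 57.5 and 53.01 CPM with P16 and 77.6, 22.4 and 10.9 CPM with empty vector, and such counts are uncertain. As for the kinases of mitotic entry, Mastl (log2FC -0.31, edgeR adjusted p = 0.271) and Wee1 (log2FC -0.28, edgeR adjusted p = 0.184) did not pass.

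**Figure D4:**
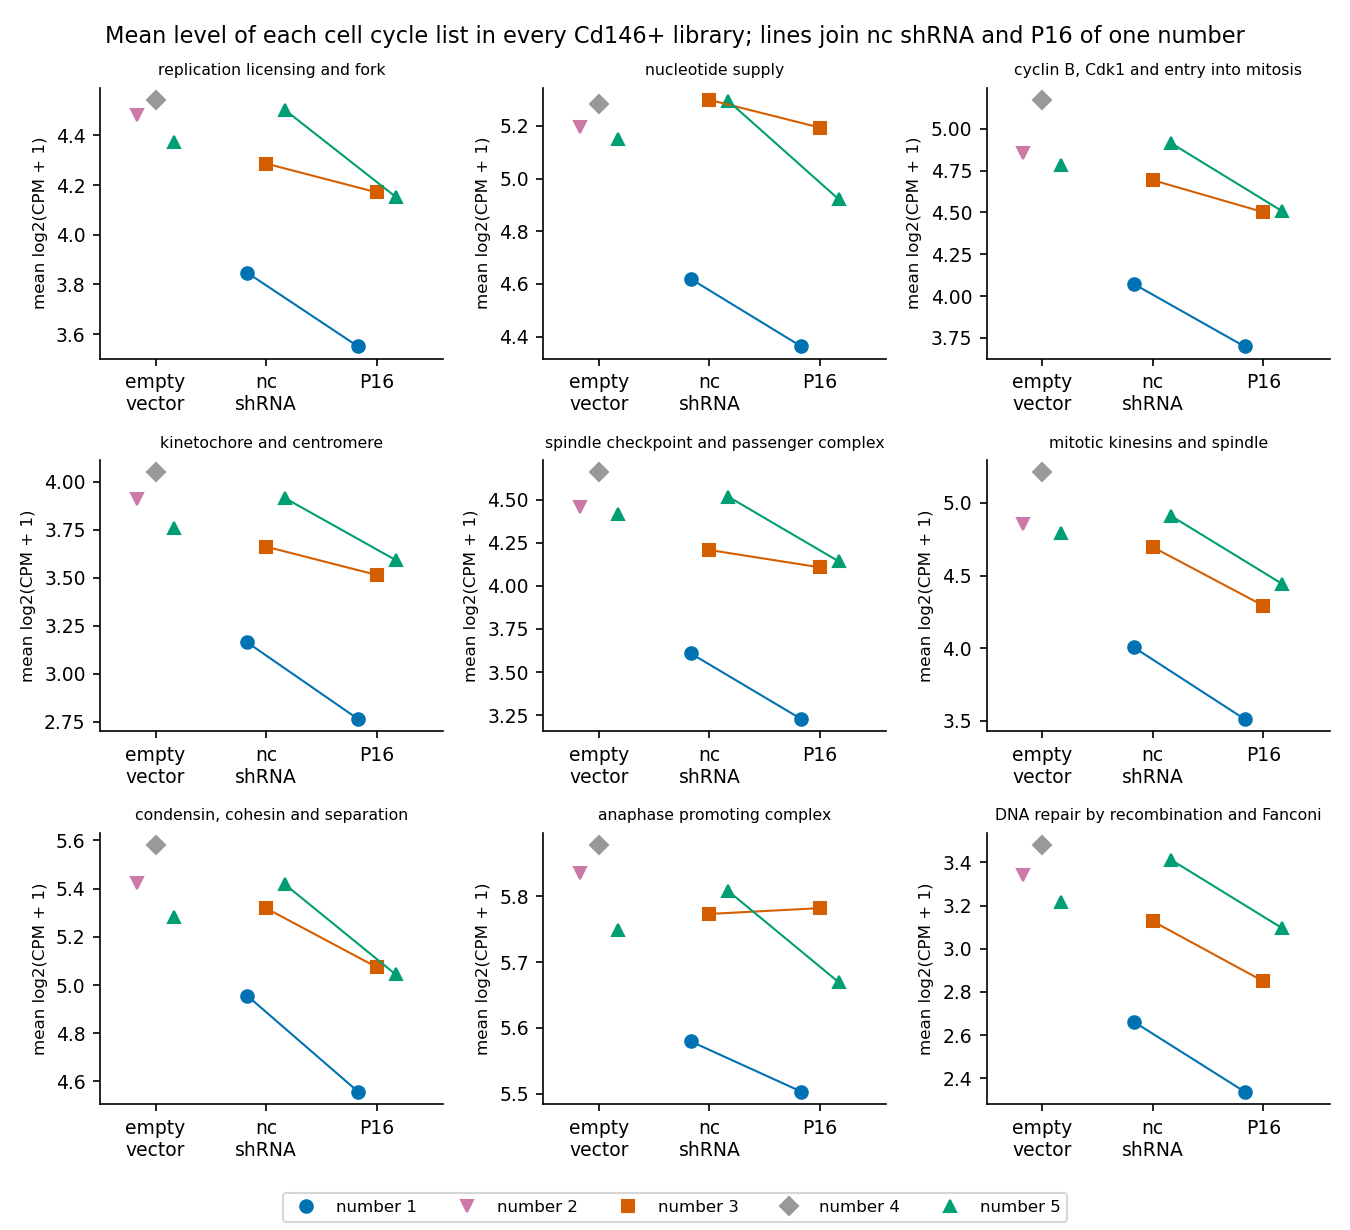
Mean log2(CPM + 1) over the genes of each of the 9 cell cycle lists in each Cd146+ library, with the replicate number as colour and shape and lines between the nc shRNA and P16 libraries of one number. P16 lies under nc shRNA of its number in each list, apart from number 3 in the anaphase promoting complex list, and number 1 has the lowest values with both constructs.

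The levels of the controls themselves differed. For the spindle list the mean log2(CPM + 1) was 4.86, 5.21 and 4.80 with empty vector, 4.01, 4.70 and 4.91 with nc shRNA, and 3.51, 4.29 and 4.44 with P16. Number 1 was lowest with both constructs it has, and no empty vector library carries number 1 or 3. For these numbers, construct and number cannot be told apart in the comparison with empty vector. Within number 5 the median log2 difference of P16 to empty vector was -0.37 for the spindle genes, -0.35 for cyclin B and Cdk1 genes, -0.21 for replication and -0.21 for repair, with all 31, 17 of 20, 46 of 49 and 25 of 35 genes lower, while over all genes 50.8% were lower.

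Targets of p53, which the p19Arf product of the same locus would act on, had a median near 0. Of 30 genes tested none passed in either direction, and the median was 0.05. Mdm2, the ligase that degrades p53, was at 234, 155 and 299 CPM with empty vector and 317, 341 and 329 CPM with P16 (log2FC 0.52, SE 0.26). Ccng1 (log2FC 0.20, SE 0.24) and Phlda3 (log2FC -0.01, SE 0.28), the most abundant by FPKM, did not pass.

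Of 47 genes for senescence and secreted factors 37 were tested, 2 passed as higher and 1 as lower (1.55% and 1.99% of all genes did). The median was 0.22 and changed sign without P16 5 (-0.12). Lif, a cytokine of the interleukin-6 family, was at 32.3, 12.98 and 36.9 CPM with empty vector and 109, 104 and 43.5 CPM with P16 (log2FC 1.64, SE 0.51, passed). With nc shRNA Lif was at 112, 77.0 and 36.7 CPM, near the P16 library of the same number. Mmp3, a stromelysin, was at 1.01, 1.07 and 15.3 CPM with empty vector against 33.3, 194 and 17.8 CPM with P16, highest in P16 3 (log2FC 3.81, SE 1.48, passed). Igfbp4, which binds insulin-like growth factors, was at 292, 698 and 49.0 CPM with empty vector and 48.4, 34.6 and 55.8 CPM with P16, with empty vector 5 among the P16 values (log2FC -2.90, SE 0.89, passed). Against nc shRNA, at 33.1, 24.7 and 44.5 CPM, Igfbp4 was instead higher in P16, by 0.45 (edgeR adjusted p = 0.00342). Against nc shRNA 7 of 39 tested genes of the list rose and 1 fell (3.40% and 1.68% of all genes did). The gene that fell, Lmnb1, encodes lamin B1 and was at 34.7, 58.8 and 64.9 CPM with nc shRNA and 25.4, 44.2 and 46.6 CPM with P16 (log2FC -0.44, edgeR adjusted p = 0.00270), and at 45.4, 80.5 and 61.8 CPM with empty vector. It is named here outside the rule for named genes, after its values were seen.

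Lysosomal genes leaned upwards. All 39 were tested, 32 had a positive log2 fold change against empty vector, 3 passed as higher and none as lower, and the median was 0.27. Over all tested genes 1.55% passed as higher and 50.5% had a negative log2 fold change. Ctsl, a cysteine protease, was at 495, 439 and 589 CPM with empty vector and 897, 851 and 617 CPM with P16, without overlap (log2FC 0.63, SE 0.22, passed). Ctsb, a related protease, was at 751, 645 and 987 CPM with empty vector against 1259, 1420 and 1022 CPM with P16 (log2FC 0.64, SE 0.24, passed), and Naglu, which degrades heparan sulfate, at 66.8, 62.2 and 61.4 CPM with empty vector against 159, 163 and 62.8 CPM with P16, with P16 5 within the control range (log2FC 1.02, SE 0.36, passed). Against nc shRNA 6 of the 39 rose (3.40% of all genes did) and none fell, with a median of 0.09. Ctsb rose from 853, 779 and 826 CPM by 0.58 (edgeR adjusted p = 0.00168) and Naglu by 0.44 (edgeR adjusted p = 0.00121), both higher in 3 of 3 pairs, while Ctsl had a log2FC of 0.12 (edgeR adjusted p = 0.393). Within number 5 the list median was 0.03.

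Interferon response genes pointed in opposite directions against the 2 controls. Of 40 genes 36 were tested against empty vector, 31 were lower, 5 passed as lower (1.99% of all genes did) and none as higher, and the median was -0.73. Against nc shRNA with the block 35 were tested, 30 were higher, 6 rose (3.40% of all genes did) and none fell, and the median was 0.36. Ifit3b, an interferon-induced effector, was at 4.31, 10.8 and 6.41 CPM with empty vector, 1.503, 1.61 and 1.59 CPM with nc shRNA and 2.80, 3.64 and 3.62 CPM with P16, so that P16 lay between the controls (log2FC -1.09, SE 0.40, passed against empty vector, and 1.10, edgeR adjusted p = 0.0145 against nc shRNA). Lgals3bp was at 83.7, 192 and 116 CPM with empty vector, 59.8, 42.6 and 54.7 CPM with nc shRNA and 61.0, 53.2 and 83.0 CPM with P16 (log2FC -0.99, SE 0.34, passed against empty vector). Stat2, a transcription factor of interferon signalling, was at 35.04, 34.3 and 34.8 CPM with empty vector and 21.1, 20.7 and 29.0 CPM with P16 (log2FC -0.55, SE 0.18, passed), and with nc shRNA at 22.9, 24.8 and 25.9 CPM, level with P16 (log2FC -0.06, SE 0.10). Bst2 (tetherin) rose against nc shRNA, from 27.6, 19.1 and 59.4 CPM to 31.3, 26.4 and 81.9 CPM (log2FC 0.38, edgeR adjusted p = 0.0173), and was at 35.5, 105 and 107 CPM with empty vector. Within number 5, 33 of the 36 tested genes were lower in P16 5 than in empty vector 5, with a median of -0.28. The nc shRNA construct is in another backbone, and the part of the backbone in these differences was not tested. No direction against controls can thus be given for this list.

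Of 28 chemokines and cytokines 15 were tested, and 1 passed as lower and 1 as higher (1.99% and 1.55% of all genes did). Ccl9 passed as lower (17.2, 19.1 and 3.30 CPM with empty vector and 1.09, 1.29 and 3.77 CPM with P16, -2.67, SE 0.82, passed), though empty vector 5 at 3.30 CPM was beside P16 5 at 3.77 CPM. Il18 passed as higher (1.21, 0.788 and 2.00 CPM with empty vector against 2.12, 9.69 and 2.41 CPM with P16, log2FC 1.82, SE 0.74, passed), carried by P16 3. Ccl2, the monocyte chemoattractant, was at 20.9, 13.1 and 99.1 CPM with empty vector and 60.6, 204 and 124 CPM with P16 and did not pass (log2FC 1.54, SE 0.86). Among 21 immediate early factors Mafk, a small Maf factor, passed as higher, at 97.8, 98.3 and 105 CPM with empty vector and 150.01, 121 and 127 CPM with P16, without overlap (log2FC 0.40, SE 0.14, passed). It also rose against nc shRNA by 0.30 (edgeR adjusted p = 0.0245). Within number 5 Mafk was 1.20 times as high with P16 as with empty vector.

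Of 30 endothelial genes 28 were tested and none passed, with a median of -0.02 that was 0.53 without P16 3, the library short of endothelial transcripts, -1.08 without P16 5 and 0.61 without empty vector 5. Eng, the TGF-beta co-receptor endoglin, was at 150.03, 640.5 and 635 CPM with empty vector and 483, 283 and 718 CPM with P16 (log2FC 0.06, SE 0.61), and Mcam, the antigen of the selection, at 187, 390.0 and 305 CPM with empty vector against 147, 10.4 and 306 CPM with P16 (log2FC -0.92, SE 1.01). Against nc shRNA 3 of 29 rose (3.40% of all genes did) and none fell. Of 34 angiogenesis genes 32 were tested and 3 passed as lower (1.99% of all genes did). Robo1, a guidance receptor, was at 25.3, 52.3 and 10.51 CPM with empty vector and 5.83, 6.11 and 9.70 CPM with P16 (log2FC -2.02, SE 0.59, passed). The Notch ligand Dll1 had 1.05, 4.03 and 1.60 CPM with empty vector against 0.629, 0.280 and 0.603 CPM with P16 (log2FC -2.12, SE 0.66, passed), and the Notch target Hey2 11.2, 27.6 and 2.27 CPM with empty vector against 0.915, 0.336 and 3.37 CPM with P16 (log2FC -3.13, SE 1.16, passed). In each of the 3 empty vector 4 was the highest library, and P16 3 was among the lowest. Against nc shRNA the 3 genes had a log2FC of -0.21 (SE 0.16), 0.03 (SE 0.52) and 0.22 (SE 0.35), and no angiogenesis gene passed. Thbs1, the angiogenesis inhibitor thrombospondin-1 and among the most abundant transcripts, was at 11814, 3903 and 5879 CPM with empty vector against 14772, 7132 and 6541 CPM with P16 and did not pass (log2FC 0.40, SE 0.52).

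Of 22 sinusoidal genes 17 were tested and 2 passed as higher (1.55% of all genes did), Ctsl (above) and the transcription factor Maf. Maf was at 46.6, 55.4 and 86.3 CPM with empty vector and 138, 212 and 84.3 CPM with P16 (log2FC 1.20, SE 0.40, passed). With nc shRNA Maf was at 119.9, 242 and 92.7 CPM, as with P16, and P16 5 was level with empty vector 5. Of 33 genes for extracellular matrix and integrins, 1 passed as higher (1.55% of all genes did). Nid2, a basement membrane nidogen, was at 187, 105 and 162 CPM with empty vector and 955, 899 and 187 CPM with P16 (log2FC 2.16, SE 0.63, passed), and it rose against nc shRNA, from 596, 609 and 128 CPM, by 0.60 (edgeR adjusted p = 6.44e-05, higher in 3 of 3 pairs). In the comparison with nc shRNA 9 of the 33 rose (3.40% of all genes did), among them Eln (elastin, 0.41, edgeR adjusted p = 0.0121), and 1 fell. That gene, Vcan, which encodes the proteoglycan versican, was at 47.3, 59.0 and 147 CPM with nc shRNA and 28.0, 31.9 and 94.8 CPM with P16 (log2FC -0.75, edgeR adjusted p = 1.63e-05). Fn1, fibronectin, the most abundant of the list, was at 22111, 21705 and 16711 CPM with empty vector against 18638, 9906 and 15714 CPM with P16 (log2FC -0.45, SE 0.31). None of 23 tested stellate and mesenchymal genes passed against empty vector, and 6 rose and 1 fell against nc shRNA (3.40% and 1.68% of all genes did). Of 23 genes for TGF-beta and endothelial-to-mesenchymal transition, the co-receptor Tgfbr3 passed as higher (28.3, 21.4 and 42.9 CPM with empty vector against 109, 105 and 43.0 CPM with P16, log2FC 1.47, SE 0.43, passed) and the repressor Snai2 as lower (80.1, 49.4 and 16.7 CPM with empty vector against 17.9, 7.12 and 15.9 CPM with P16, log2FC -1.83, SE 0.63, passed). Both were level against nc shRNA (log2FC -0.13, SE 0.08, and -0.12, SE 0.13) and within number 5, where the ratios were 1.002 and 0.953. None of the tested macrophage (16), hepatocyte (6), lymphoid (2) and mesothelial (9) genes passed against empty vector. Of 10 tested cholangiocyte genes Sox9 passed as lower, at 17.1, 135 and 6.63 CPM with empty vector and 5.38, 2.80 and 6.18 CPM with P16 (log2FC -3.46, SE 1.17, passed), with empty vector 4 far above the other libraries.

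The genes with the smallest p among those without overlap of the 2 groups were mixed in kind. After Cdkn2a, the smallest p among the higher genes belonged to Entpd4b (0.806, 0.185 and 0.178 CPM with empty vector and 5.20, 2.30 and 5.23 CPM with P16, log2FC 3.42, SE 0.76, passed) and Srp54b (7.18, 4.12 and 10.7 CPM with empty vector against 30.1, 48.1 and 17.8 CPM with P16, log2FC 2.12, SE 0.49, passed). Whether reads of Entpd4b and Srp54b were shared with similar copies in the genome was not tested, and their counts are taken as uncertain. Nod1, an innate sensor of bacterial peptidoglycan, was at 53.4, 52.2 and 70.9 CPM with empty vector and 125, 114 and 85.0 CPM with P16 (log2FC 0.88, SE 0.21, passed), and rose against nc shRNA from 88.1, 87.4 and 60.1 CPM (log2FC 0.47, edgeR adjusted p = 0.000747). Aplp1, a relative of the amyloid precursor protein, was at 119.5, 136 and 189.9 CPM with empty vector against 466, 527 and 227 CPM with P16 (log2FC 1.46, SE 0.36, passed) and rose against nc shRNA as well (log2FC 0.52, edgeR adjusted p = 0.000680). Plch1, Smyd1, Resf1, Ncoa4 and Il1rap completed the 10, with log2 fold changes of 2.36, 2.36, 1.34, 0.75 and 1.27. Against nc shRNA these 5 genes had log2 differences of -0.04, 0.15, 0.12, 0.02 and 0.19, none of which passed. Among the 10 that were lower, 4 belong to mitosis (Kif20b, Wee1, Mastl and Arhgap11a, a regulator of cytokinesis). Arhgap11a was at 41.2, 46.8 and 38.5 CPM with empty vector and 16.2, 22.5 and 29.3 CPM with P16 (log2FC -0.89, SE 0.24, passed), and fell against nc shRNA (log2FC -0.51, edgeR adjusted p = 0.00389). Elovl6, a fatty acid elongase, was at 21.5, 21.7 and 17.2 CPM with empty vector against 8.75, 10.1 and 12.8 CPM with P16 (log2FC -0.93, SE 0.21, passed), and Slc1a4, a transporter of neutral amino acids, at 95.2, 93.2 and 65.7 CPM with empty vector against 45.9, 40.8 and 59.0 CPM with P16 (log2FC -0.80, SE 0.22, passed). Cmklr1, Map2k6, Sytl5 and Fxyd1 were low throughout, at most 8.91 CPM in any library, with log2 fold changes of -3.85, -1.81, -2.94 and -4.08.

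One list holds some of the genes that the study also measured by RT-PCR, so that it is no independent choice. Of its 18 genes 14 were tested, 1 passed as higher (Mafk) and 3 as lower (Mastl, Ccl9 and Stat2), with values as above. Il18, a further target of those assays outside the list, passed as higher, as given above. Timp2, an inhibitor of metalloproteinases, was at 2332, 2452 and 2485 CPM with empty vector and 6913, 4078 and 2526 CPM with P16, all 3 P16 libraries above the controls (log2FC 0.90, SE 0.38, not passed), and at 5698, 3446 and 2095 CPM with nc shRNA. Vegfa (log2FC 0.26, SE 0.32), Fos (log2FC 0.46, SE 0.76), Casp4 (log2FC 0.40, SE 0.34), Il6 (log2FC 0.56, SE 0.64), Ccl5 (log2FC -0.61, SE 0.92) and Cxcl10 (log2FC -0.71, SE 1.11) did not pass. Mmp7 and Ifnb1 had no count in the 9 libraries, and Tnf and Ccl12 were too low to be tested.

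In Cd31+ cells the same construct gave smaller values for the cell cycle genes. Cdkn2a had a log2 fold change of 2.02 there, and the difference to Cd146+ cells was 0.40 (SE 0.68, edgeR adjusted p = 0.993). Of the 231 cell cycle genes 198 were lower with P16 in Cd31+ cells and 42 passed as lower (2.29% of all 14565 genes did), with a median of -0.24, and 196 had a more negative value in Cd146+ cells. The differences were tested gene by gene as an interaction over 12 libraries. Of 15636 genes 507 (3.24%) had an unadjusted p under 0.05 and none an adjusted one (lowest 0.993 in edgeR). Of the 231 cell cycle genes 6 passed unadjusted (2.6%), all more negative in Cd146+ cells, and none adjusted, so that no cell cycle gene was shown to differ between the populations. Rpa2 was among them (log2FC -1.12 in Cd146+ and 0.00297 in Cd31+ cells). Kif11 had a log2FC of -0.83 and -0.74, Cenpf -1.05 and -0.79, and Foxm1 -0.74 and -0.29 in the 2 populations. The median difference over the 231 genes was -0.38 and changed to -0.12 with the replicate number within each population as a term. The replicate numbers that P16 and empty vector share differ between the populations, as given above. Interferon genes had a median of 0.42 in Cd31+ and -0.73 in Cd146+ cells, and none of 39 passed the test of the difference. The smallest p of the difference belonged to Gm12715, Gm11263 and Entpd4b, which were more positive in Cd146+ cells (1.73, 3.40 and 4.03), and to Ptger1, Gm38042 and Gm45447, which were more negative (-1.98, -3.92 and -1.87). For Entpd4b and Gm12715, the assignment of reads between similar copies in the genome was not tested. The other 4 were low.

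**Figure D5:**
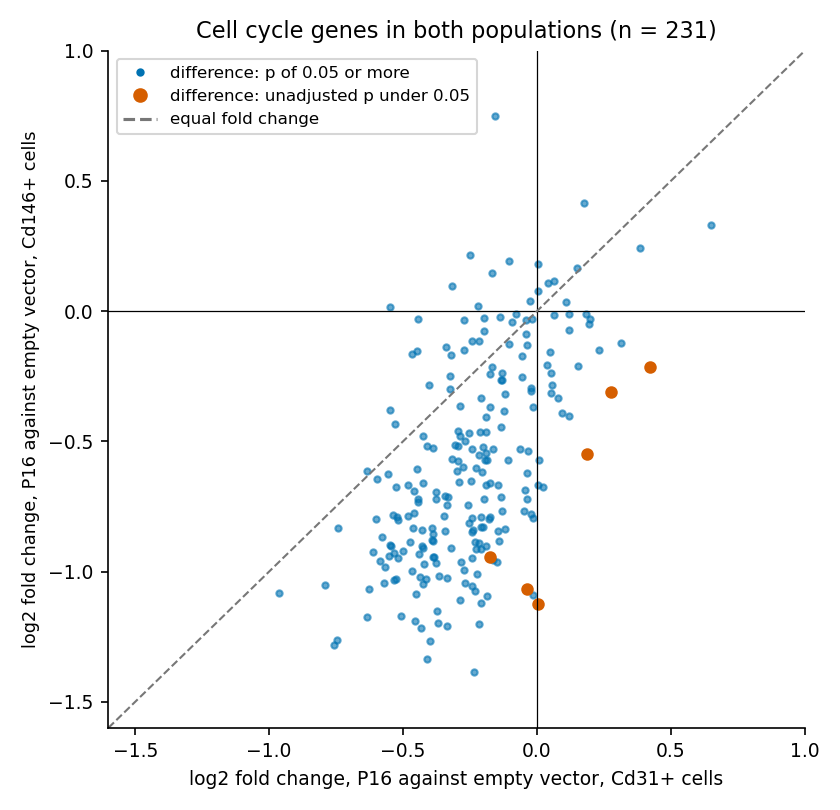
Log2 fold change of P16 against empty vector for each of the 231 cell cycle genes, in Cd31+ cells (horizontal) and Cd146+ cells (vertical), with the dashed line at equal values and, in orange, the 6 genes with an unadjusted p under 0.05 for the difference. Most points lie in the lower left part and below the dashed line.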

How the data were processed

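Poly-A RNA of transduced Cd146+ and Cd31+ liver cells was sequenced, and the authors deposited 1 table with the read count per gene and library and, beside it, the FPKM that they had computed from these counts, for 24 libraries and 56748 genes. The submitters' processing notes name fastp and mm9 without versions, and the aligner and counter are not given in the sources used here. Columns of the authors' own comparisons (fold changes, p-values, group means) were not used. Gene starts in the table did not match GRCm38 (2.72% of 21219 protein-coding genes were within 1000 bases), so its coordinates are not printed, and promoter windows are from RefSeq on GRCm38.p6.

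Counts were analysed in R 4.3.3 with edgeR 4.0.16 (filterByExpr, TMM, robust quasi-likelihood fit, Benjamini-Hochberg adjustment), with each comparison fitted on its own libraries. The SE is the log2 fold change divided by the root of its F statistic. DESeq2 1.42.0 and limma 3.58.1 were alternatives. FPKM served to compare levels between genes. Groups came from the labels. P16 and nc shRNA libraries of the same number deviated from their group means together in all 3 pairs (r of at least 0.885), so that the number was used as a block there. Scripts were checked on simulated counts. The 33 gene lists (714 genes) and their members were chosen with earlier results of these data known. Named genes are all regulators of the first 4 lists, up to 3 with the smallest p and 2 with the highest FPKM of every other list, the 10 with the smallest p in each direction without overlap, the list of 18 RT-PCR genes, and 3 in each direction against nc shRNA and between populations. Further genes are Mki67, Aspm, Mcm5, Mcm6, Lmnb1, Vcan, Eln, Bst2, Eng, Thbs1, mt-Co3, mt-Atp6, Rpl19-ps11, Gm28437 and those of the marker and sex checks, named after their values were seen where the rule does not hold them. A few members of the lists are not reported here by name.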

Additional observations from a re-analysis of the deposited data

How the results depend on the processing

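Against empty vector, the counts of genes lower and higher at an unadjusted p under 0.05 (295 and 230) ranged from 104 to 696 and from 82 to 596 with single libraries left out. They became 505 and 349 with all genes of at least 1 count, 194 and 56 with a term for sex-linked transcripts, and 44 and 25 without P16 3 and empty vector 4. DESeq2's Wald test gave 353 higher genes, and 1 with an adjusted p under 0.05 in place of 0. The replicate block over 12 libraries gave 151 lower genes, 2 adjusted calls and a median of -0.37 over the 9 cell cycle lists, which was between -0.82 and -0.42 with single libraries left out. The block also turned Igfbp4 (0.20), Ccl9 (0.24) and Hey2 (0.59) positive. Empty vector 2 and 4, where these genes were highest, do not enter that estimate. Within number 5 the ratios of P16 to empty vector were 1.14, 1.14 and 1.48. Why empty vector 2 and 4 differed from empty vector 5 was not tested. Cdkn2a was between 1.83 and 2.77 without single libraries. Against nc shRNA without the block, single libraries left out gave 16 to 69 lower genes (66 with all), 88 to 185 higher (164 with all) and 0 adjusted calls (1 with all). Adjusted calls were 2 with all genes of at least 1 count and 27 in the Wald test. The replicate block gave 1295 lower, 1624 higher and 780 adjusted calls. Within the block, all genes of at least 1 count gave 1530, 1849 and 1135, a mean of at least 10 counts 1297, 1566 and 741, DESeq2 size factors 1222, 1696 and 756, and the Wald test 603, 998 and 382. Leaving out the pair of number 1 gave 1007, 1071 and 538, of number 3 1018, 1334 and 393, and of number 5 1342, 1481 and 1077. For the difference between populations the 507 genes became 913 with all genes of at least 1 count and 247 to 1242 without single libraries, and the replicate block over 24 libraries gave 13 adjusted calls in place of 0. For single genes of the text against empty vector, 1602 values under an alternative kept direction and side of the threshold, 288 lost the threshold, 25 came to pass it, and 47 values that had not passed changed sign. Apart from the 3 named, no gene that had passed turned direction. The sex term, the 2 libraries left out together and the left-out pairs were chosen after seeing the data. A count of 3 was worth up to 0.172 CPM, and values under it are within the limit that a count of 0 allows.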

Other observations

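Some transcripts that are commonly abundant had low and widely varying counts. Gapdh was at 13.1, 5.38 and 14.2 CPM with empty vector, 9.80, 9.34 and 205 CPM with nc shRNA and 151, 9.08 and 71.9996 CPM with P16. mt-Co3, a mitochondrial subunit of cytochrome oxidase, was at 40.5, 12.3 and 7.70 CPM with empty vector, 13.2, 8.56 and 9.05 CPM with nc shRNA and 41.9, 37.0 and 28.4 CPM with P16, while mt-Cytb, of the same mitochondrial genome, was at 2601, 2343 and 2031 CPM with empty vector, 3751, 2103 and 2214 CPM with nc shRNA and 3494, 2185 and 2071 CPM with P16. Actb was at 3199, 3551 and 3053 CPM with empty vector, 2750, 3164 and 2914 CPM with nc shRNA and 3169, 3945 and 3179 CPM with P16. Whether reads were shared with similar copies in the genome was not tested. Values of Gapdh, mt-Co2, mt-Co3, mt-Atp6, Gm28661, Gm12715, Gm28437, Gm11263, Rpl19-ps11, Entpd4b and Srp54b are taken as uncertain.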
